A study of Mus musculus with 6 samples.

Results

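Caveola genes were examined in whole inguinal white adipose tissue (iWAT) of mice that lack C/EBPα in their adipocytes. The genes were 7, chosen by symbol from the 36144 gene symbols of the deposited expression table, and were the caveolins *Cav1*, *Cav2* and *Cav3*, the cavins *Cavin1*, *Cavin2* and *Cavin3*, and *Ehd2*. All 7 passed the filter on low counts and were tested. Bulk RNA-seq was performed on iWAT of 10-week-old female mice on the C57BL6/J background, randomly fed, with both inguinal depots of each mouse and without their lymph nodes. The control group was Cebpa_fl/fl (Cebpa_fl/fl; AdipoQ-Cre-, n = 3) and the knockout group was Cebpa_ASKO (Cebpa_fl/fl; AdipoQ-Cre+, n = 3), 1 library for each mouse, and mice of both groups carried the floxed *Cebpa* alleles. AdipoQ-Cre is driven by the promoter of the adiponectin gene, which is switched on late in fat cell differentiation, so that endothelial, stromal and other cells of the depot keep *Cebpa*, and the RNA of all of these cells was measured together. In such bulk tissue, fewer cells of a type and less RNA per cell cannot be told apart.

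Caveolae are small flask-shaped pits of the plasma membrane, rich in cholesterol and sphingolipids, and they are especially dense on adipocytes, endothelial cells and muscle cells. Caveolins form the membrane-embedded coat, cavins form a second coat on its cytoplasmic face, and the ATPase EHD2 sits at the neck and holds the pit at the membrane. In adipocytes caveolae have been linked to insulin signaling, to fatty acid uptake and to the stretch of the surface as the lipid droplet grows, and loss of caveolin-1 or of cavin-1 causes lipodystrophy in mice and humans. *Cav1* and *Cavin1* are each required for caveolae outside striated muscle. *Cav2* encodes a partner that needs caveolin-1 to reach the cell surface, and *Cav3* encodes the caveolin of muscle.

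The libraries held between 33141769 and 49477671 estimated counts, with the 3 Cebpa_ASKO libraries below the 3 controls. *Cebpa* itself measured 448, 465 and 498 CPM (counts scaled to library size with edgeR's TMM method) in the controls and 37.7, 45.8 and 37.2 CPM in the knockouts. Each of 8 adipocyte marker genes, adiponectin and perilipin-1 among them, was detected in every library. A few libraries differed in ways the genotype does not describe. A list of 6 lymphocyte markers summed to 208 CPM in Cebpa_fl/fl 1 and to between 3.8 and 9.54 CPM in the other 5 libraries. Cebpa_fl/fl 2 had the highest sums of the fibroblast and progenitor list (15318 CPM, against 8578 to 12877 CPM in the others) and of the macrophage list (1255 CPM, against 502 to 1154 CPM). Results that rest on Cebpa_fl/fl 2 are given with and without it below.

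The genes of the group lie on 4 chromosomes of GRCm38 (GENCODE M21), and both strands carry some of them. *Cav2* (chromosome 6, 17281185 to 17289115) and *Cav1* (chromosome 6, 17306335 to 17341452) are neighbors on the plus strand, with 17220 bases from the end of *Cav2* to the start of *Cav1*. *Cav3* lies far away on the same chromosome (112459505 to 112472872, plus strand). *Cavin2* is on the plus strand of chromosome 1 (51289126 to 51302960), and *Cavin1* is on the minus strand of chromosome 11 (100956733 to 100970887). *Cavin3* (105480083 to 105482300) and *Ehd2* (15946958 to 15967567) are on the minus strand of chromosome 7, the chromosome of *Cebpa*. *Gm15581*, annotated as antisense, overlaps *Cav1* and *Cav2* on the other strand, *9330175M20Rik* does so for *Cavin2*, and *Gm45667* overlaps *Cavin3*. Whether strand was used in the counting was not given in the sources used here, so reads of these partners cannot be told apart.

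Of the 7 genes, *Cav1*, *Cav2* and *Cavin2* fell in Cebpa_ASKO iWAT, and their promoters are shown because these genes moved together. The sequences are RefSeq windows of GRCm38.p6, cut to the 250 bases before the start, on the plus strand of the genome and 5′ to 3′ along the gene. A second *Cav1* window is shown because *Cav1* has a further annotated start 1305 bases downstream, inside the gene, which is taken up below. Capitals mark matches on either strand to TTNNGNAA, a loose form of the C/EBP site.
*Cav1* first start, chr6:17306085-17306334 (+): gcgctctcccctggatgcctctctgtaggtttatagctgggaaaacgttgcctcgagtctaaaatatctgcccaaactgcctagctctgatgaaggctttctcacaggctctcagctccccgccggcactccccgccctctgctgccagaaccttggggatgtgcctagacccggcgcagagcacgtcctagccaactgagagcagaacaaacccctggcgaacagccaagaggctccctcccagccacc
*Cav1* downstream start, chr6:17307390-17307639 (+): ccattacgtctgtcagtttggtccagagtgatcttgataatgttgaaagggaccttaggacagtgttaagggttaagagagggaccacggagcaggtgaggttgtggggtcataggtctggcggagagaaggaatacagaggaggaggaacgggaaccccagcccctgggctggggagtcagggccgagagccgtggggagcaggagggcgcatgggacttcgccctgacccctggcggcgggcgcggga
*Cav2*, chr6:17280935-17281184 (+): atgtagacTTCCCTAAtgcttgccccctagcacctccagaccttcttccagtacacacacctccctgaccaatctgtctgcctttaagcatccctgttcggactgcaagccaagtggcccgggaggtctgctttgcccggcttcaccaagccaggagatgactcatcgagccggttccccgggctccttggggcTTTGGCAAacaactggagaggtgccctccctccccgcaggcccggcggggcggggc
*Cavin2*, chr1:51288876-51289125 (+): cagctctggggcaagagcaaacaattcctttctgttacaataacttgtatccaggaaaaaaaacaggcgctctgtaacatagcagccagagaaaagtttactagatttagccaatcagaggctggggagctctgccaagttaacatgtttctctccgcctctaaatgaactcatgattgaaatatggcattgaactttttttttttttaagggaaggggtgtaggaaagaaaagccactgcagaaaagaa

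Windows of 250 bases before to 50 bases after a start were found for 6 of the 7 genes, 8 windows in all, and none was found for *Cavin3*. Within these 8 windows TTNNGNAA was matched only in that of *Cav2*, once on the minus strand from base -242 and once on the plus strand from base -56, counted from the start. Of 32851 windows of this length in the RefSeq table, 40.7% held TTNNGNAA, and the overlapping, stricter palindrome TTGCGCAA (held by 0.183% of all windows) was matched in none of the 8. GC boxes (GGGCGG, 35.7% of all windows) were matched in the windows of *Cav1* at its first start, *Cav2*, *Cavin1* and *Ehd2*, and not in those of *Cavin2*, *Cav3* or the downstream *Cav1* start. The base composition of the printed stretches differed, with 59.6% G or C before the first *Cav1* start, 60.8% before the downstream one, 62% at *Cav2* and 40.4% at *Cavin2*. TATAAA (13.6% of all windows) was matched only at the first *Cav1* start, on the minus strand from base -221.

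*Cav1*, *Cav2* and *Cavin2* were all lower in each Cebpa_ASKO library than in each control library, and each was reduced to between 45.9% and 51.5% of its control mean in CPM. *Cavin1*, *Cavin3* and *Ehd2* had overlapping groups and did not pass the test, and *Cav3*, which was almost absent, was the one gene with a higher value in Cebpa_ASKO. edgeR called 3 of the 7 lower and 0 higher at an adjusted p below 0.05, where among all 16069 genes in the fit it called 5.23%, made up of 3.84% lower and 1.39% higher. DESeq2 called the same 3 lower, against 10.1% of its genes in either direction and 6.33% lower. The libraries did not overlap, with Cebpa_ASKO lower, for 3 of the 7 genes and for 13.2% of all genes, and with Cebpa_ASKO higher for 1 of the 7 and for 12.9% (26.1% in either direction). The median log2 fold change was -0.35 over the 7 genes and 0.02 over all genes tested.

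**Figure D1:**
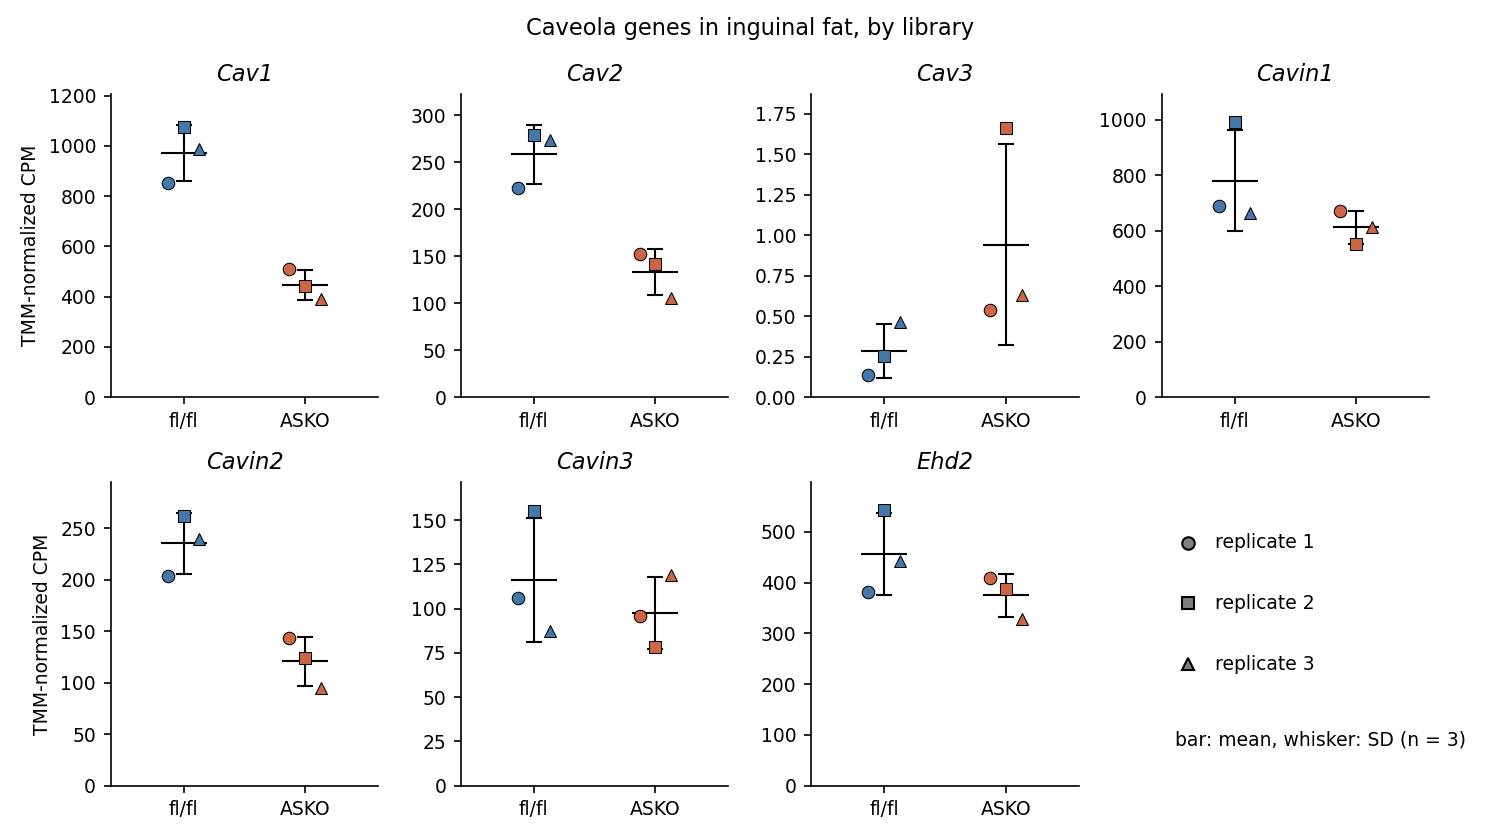
TMM-normalized CPM (y axis, from 0) of the 7 caveola genes in the 3 Cebpa_fl/fl (blue) and 3 Cebpa_ASKO (orange) libraries, with 1 point for each library, its shape giving the replicate number, and bars for the mean and SD. The groups are apart for *Cav1*, *Cav2* and *Cavin2* (and for *Cav3* at below 2 CPM) and overlap for *Cavin1*, *Cavin3* and *Ehd2*. Cebpa_fl/fl 2 is the highest library for every gene but *Cav3*.

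*Cav1*, which encodes the principal coat protein of caveolae in fat, measured 854, 1076 and 987 CPM in the controls and 509, 442 and 389 CPM in the knockouts. The lowest control was well above the highest knockout library. It changed by -1.12 on the log2 scale (SE 0.158, 95% interval -1.50 to -0.75), with an edgeR adjusted p = 0.0110. The call was lost when Cebpa_ASKO 2 was left out (-1.13 on the log2 scale, edgeR adjusted p = 0.0630), and it held when any 1 of the other 5 libraries was left out.

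*Cav2*, the caveolin that pairs with caveolin-1, measured 222, 279 and 274 CPM in the controls and 152, 142 and 106 CPM in the knockouts. Here too the groups did not overlap, and the fall was close in size to that of its neighbor. On the log2 scale *Cav2* changed by -0.96 (SE 0.167, 95% interval -1.36 to -0.56, edgeR adjusted p = 0.0265). Without Cebpa_ASKO 1, Cebpa_ASKO 2 or Cebpa_fl/fl 3 the adjusted p rose to 0.0714, 0.0853 and 0.0786 with edgeR, and the log2 fold change stayed between -1.06 and -0.83 whichever library was left out.

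*Cavin2* encodes a cavin that helps to shape the caveolar membrane and varies between tissues. It measured 204, 262 and 240.1 CPM in the controls and 143, 124 and 94.9 CPM in the knockouts, again without overlap. Its log2 fold change was also -0.96 (SE 0.175, 95% interval -1.38 to -0.54, edgeR adjusted p = 0.0295). *Cavin2* depended on the same 3 libraries as *Cav2*, with an adjusted p of 0.0597 without Cebpa_ASKO 1, 0.108 without Cebpa_ASKO 2 and 0.0817 without Cebpa_fl/fl 3 (edgeR). In all 3 genes the order of the Cebpa_ASKO libraries was the same, with Cebpa_ASKO 1 highest and Cebpa_ASKO 3 lowest. *Ehd2*, which was not called, had that order too (409.8, 388 and 328 CPM), as did the summed adipocyte markers (9211, 7322 and 6873 CPM).

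*Cavin1*, which encodes the cavin without which caveolae do not form, measured 688, 992 and 664 CPM in the controls and 670.5, 552 and 614 CPM in the knockouts. Cebpa_fl/fl 2 stood above the other 5 libraries, and Cebpa_ASKO 1 lay between the other 2 controls. Its log2 fold change of -0.35 (SE 0.191, 95% interval -0.81 to 0.10) was not called (adjusted p = 0.376, edgeR), and without Cebpa_fl/fl 2 it was -0.16. The interval still holds a fall of 0.81.

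*Ehd2*, the neck ATPase, measured 382, 543 and 443 CPM in the controls and 409.8, 388 and 328 CPM in the knockouts. *Cavin3*, which encodes a smaller cavin linked to signaling and vesicle traffic, measured 106, 155 and 87.5 CPM in the controls and 95.8, 78.2 and 119 CPM in the knockouts. For both genes the groups overlapped and Cebpa_fl/fl 2 was again the highest library. The log2 fold change of *Ehd2* was -0.28 (95% interval -0.68 to 0.11, adjusted p = 0.420, edgeR) and that of *Cavin3* was -0.25 (95% interval -0.83 to 0.33, adjusted p = 0.653, edgeR). Leaving out Cebpa_fl/fl 2 brought them to -0.15 and 0.00.

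**Figure D2:**
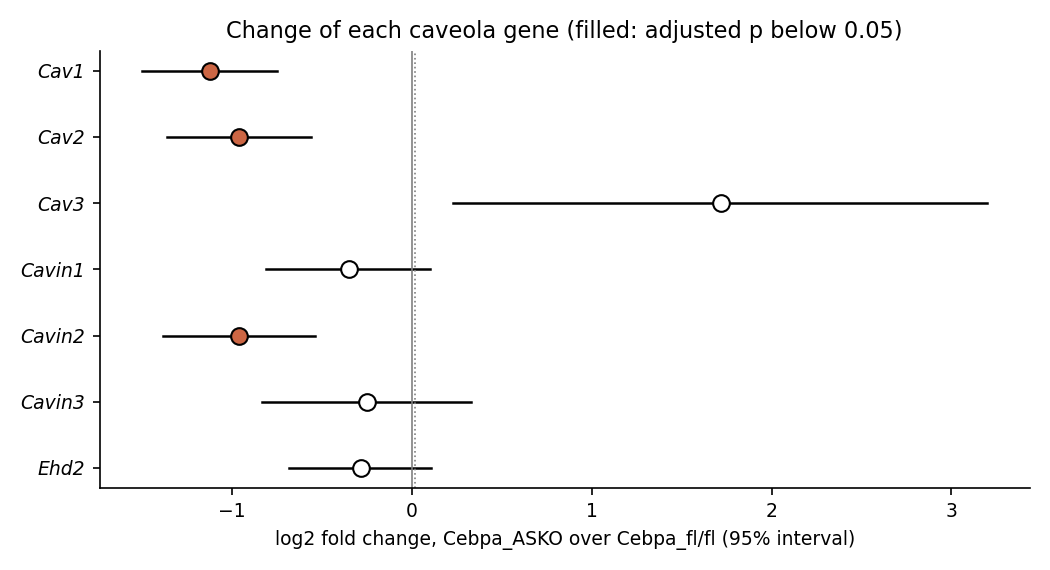
Log2 fold change of each caveola gene, Cebpa_ASKO over Cebpa_fl/fl (x axis), as a point with its 95% interval. Filled points passed edgeR's quasi-likelihood test at an adjusted p below 0.05, the solid line is at 0, and the dotted line, nearly on it, is the median of all genes tested at 0.02. The 3 filled points lie between -1.12 and -0.96.

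*Cav3* had between 6 and 65 counts in a library, against at least 16071 for *Cav1*. It measured 0.134, 0.254 and 0.466 CPM in the controls and 0.539, 1.66 and 0.629 CPM in the knockouts, so that the groups were just apart and 1 library, Cebpa_ASKO 2, was far above the rest. Its log2 fold change of 1.72 (SE 0.624) was not called (adjusted p = 0.191, edgeR). Fast skeletal muscle genes, which include *Myh4*, *Ckm* and *Acta1*, moved in the same way. Their list of 12 summed to between 536 and 728 CPM in Cebpa_fl/fl and to 2666, 5079 and 1776 CPM in Cebpa_ASKO. All 12 had a positive log2 fold change and 10 were called higher (edgeR, against 1.39% of all genes). *Myh1* and *Myh2* overlapped between the groups and were not called. Cebpa_ASKO 2 was the highest library here too. *Cavin4*, the muscle cavin, had 1.23 ± 0.465 CPM in the controls and 2.15 ± 0.406 CPM in the knockouts (SD, n = 3 each), a difference of 0.81 on the log2 scale that was not called (adjusted p = 0.274, edgeR). With the share of the fast muscle genes as a covariate the log2 fold change of *Cav3* turned to -0.68. That share separates the genotypes completely (0.0523% to 0.0740% of counts in Cebpa_fl/fl, 0.188% to 0.526% in Cebpa_ASKO), so muscle and genotype cannot be told apart in these libraries.

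Levels were compared between genes per length, in the authors' TPM. In Cebpa_fl/fl, *Cav1* was first with 493, 666 and 628 TPM, and *Cavin1* followed with 233, 375 and 241 TPM, both clear of their neighbors. The next 4 genes did not differ beyond their spread, with *Cav2* between 98.3 and 138 TPM, *Ehd2* between 85.8 and 137 TPM, *Cavin2* between 78.9 and 114 TPM and *Cavin3* between 70.3 and 130.2 TPM. *Cav3* was last at up to 0.568 TPM. In Cebpa_ASKO, *Cav1* (265 to 305 TPM) and *Cavin1* (216 to 245 TPM) had come close to each other. *Ehd2* (86.8 to 100.2 TPM) was above *Cav2* (57.4 to 73.9 TPM) in each of the 3 Cebpa_ASKO libraries. It was below *Cav2* in each of the 3 controls, though only by 137 against 138 TPM in Cebpa_fl/fl 2. *Cavin2* was at 43.2 to 55.8 TPM in Cebpa_ASKO. The 7 genes together summed to 1068, 1561 and 1278 TPM in Cebpa_fl/fl and to 824, 813 and 803 TPM in Cebpa_ASKO, and *Cav1* made up 46.1%, 42.7% and 49.1% of that sum in the controls and 37.0%, 36.7% and 33% in the knockouts.

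Whether the genes changed by different amounts was asked with the ratio of each gene to *Cav1* within a library, which does not depend on the scaling between libraries. Against *Cav1*, *Cavin1* was at 0.473, 0.563 and 0.384 in Cebpa_fl/fl and at 0.753, 0.723 and 0.923 in Cebpa_ASKO. The ratio of *Ehd2* was 0.174, 0.206 and 0.170 in the controls and 0.305, 0.336 and 0.327 in the knockouts, and that of *Cavin3* was 0.161, 0.195 and 0.112 against 0.237, 0.226 and 0.396. For these 3 genes every Cebpa_ASKO library was above every control, by 0.76, 0.82 and 0.86 on the log2 scale for *Cavin1*, *Ehd2* and *Cavin3* (exact two-sided permutation test, p = 0.1 each, the smallest that 3 against 3 allow, and 0.120 after Benjamini-Hochberg adjustment over 6 ratios). The ratio of *Cav2* to *Cav1* lay between 0.199 and 0.210 in the controls and between 0.217 and 0.248 in the knockouts, a difference of 0.15 on the log2 scale (the same exact p, 0.1). The ratio of *Cavin2* to *Cav1* overlapped between the genotypes (0.158 to 0.170 and 0.163 to 0.185) and differed by 0.12 on the log2 scale (exact permutation test, p = 0.2). The ratio of *Cav3* to *Cav1* was higher in Cebpa_ASKO by 2.81 on the log2 scale, from at most 65 counts in a library. Leaving out Cebpa_fl/fl 2, the library highest in every gene but *Cav3*, kept every one of these differences above 0. *Cav1* had the lowest log2 fold change of the 7 genes (-1.12), so ratios to it rise in Cebpa_ASKO by the choice of reference. Their shared direction is therefore not a separate result.

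**Figure D3:**
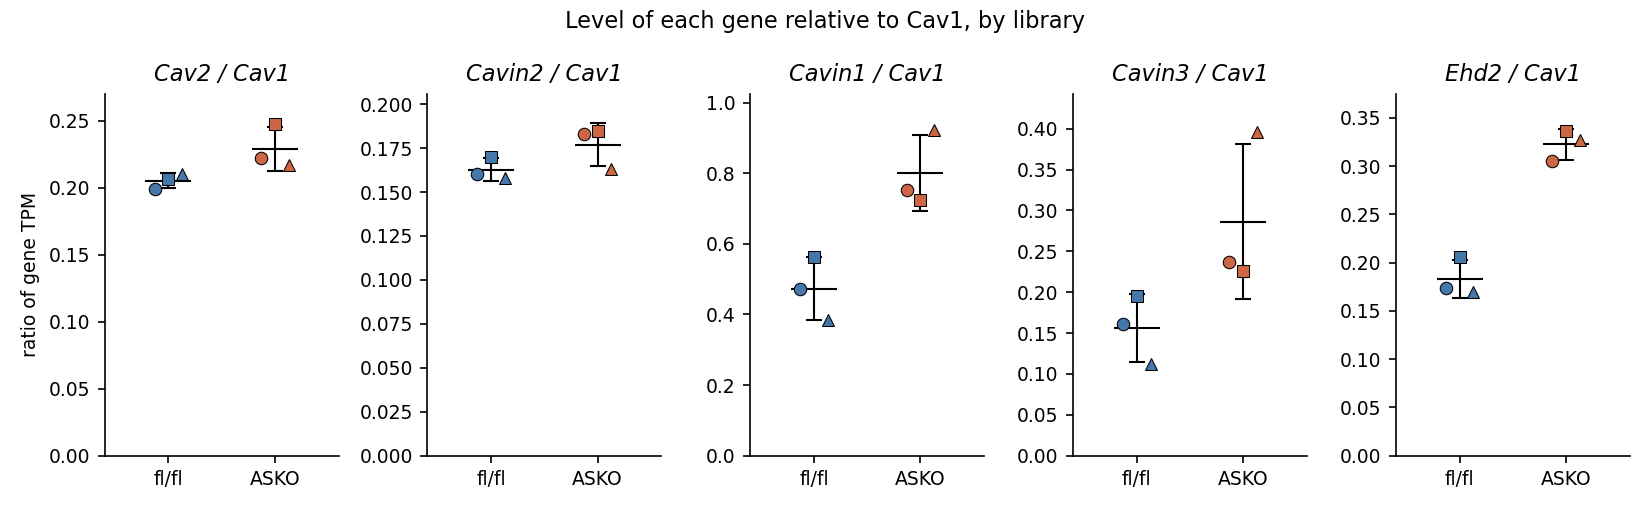
Ratio of the TPM of 5 caveola genes to that of *Cav1* in the same library (y axes, from 0), for the 3 Cebpa_fl/fl (blue) and 3 Cebpa_ASKO (orange) libraries, with the mean and SD. The ratios of *Cavin1*, *Cavin3* and *Ehd2* are apart and differ by 0.76 to 0.86 on the log2 scale, and those of *Cav2* and *Cavin2* by 0.15 and 0.12.

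Because the authors deposited a value for every transcript, the transcripts of each gene were compared as well. *Cav1* has 10 annotated transcripts here and *Cav2* has 3, and in the other genes 1 transcript carried at least 98.5% of the TPM in every library. The most abundant *Cav1* transcript, *Cav1-201*, made up 70.6%, 76.7% and 66.9% of the gene in Cebpa_fl/fl and 63.6%, 60.1% and 64.8% in Cebpa_ASKO, without overlap (exact two-sided permutation test, p = 0.1, and 0.2 adjusted over the 2 genes compared). The difference was -8.59 percentage points, and -5.94 without Cebpa_fl/fl 2, the control with the highest share. *Cav2-201* made up 97.7%, 98.2% and 95.9% of its gene in the controls and 97.8%, 94.8% and 92.7% in the knockouts (exact permutation test, p = 0.300). kallisto divides read pairs among the transcripts of a gene, so these shares are estimates.

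*Cav1* transcripts start either at the first start, within 88 bases of each other, or 713 to 1388 bases further on. The second promoter window printed above ends just before the start at 1305 bases. The downstream starts at 713 and 943 bases lie upstream of that window. The grouping by start was chosen after the transcript values had been seen. Transcripts from the first start summed to 360.3, 526 and 439 TPM in Cebpa_fl/fl and to 204, 189.6 and 182 TPM in Cebpa_ASKO, or 43.5% of the control mean. Those from the downstream starts summed to 132, 141 and 189 TPM in the controls and to 101, 109 and 83.0 TPM in the knockouts, or 63.3% of the control mean. The genotypes did not overlap in either set. The downstream share was 26.0% ± 4.58 in the controls and 33.6% ± 2.60 in the knockouts, without overlap (SD, n = 3 each, exact two-sided permutation test, p = 0.1). The difference was 7.59 percentage points, and 5.12 without Cebpa_fl/fl 2, the control with the lowest share. Of the downstream transcripts, *Cav1-208* is among the shortest, and short transcripts weigh heavily in TPM. Without it the shares were 12.3% ± 1.92 and 19.4% ± 2.40, and as a share of estimated counts they were 12.9% ± 2.56 and 21% ± 2.87 (SD, n = 3 each), with no overlap in either case.

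**Figure D4:**
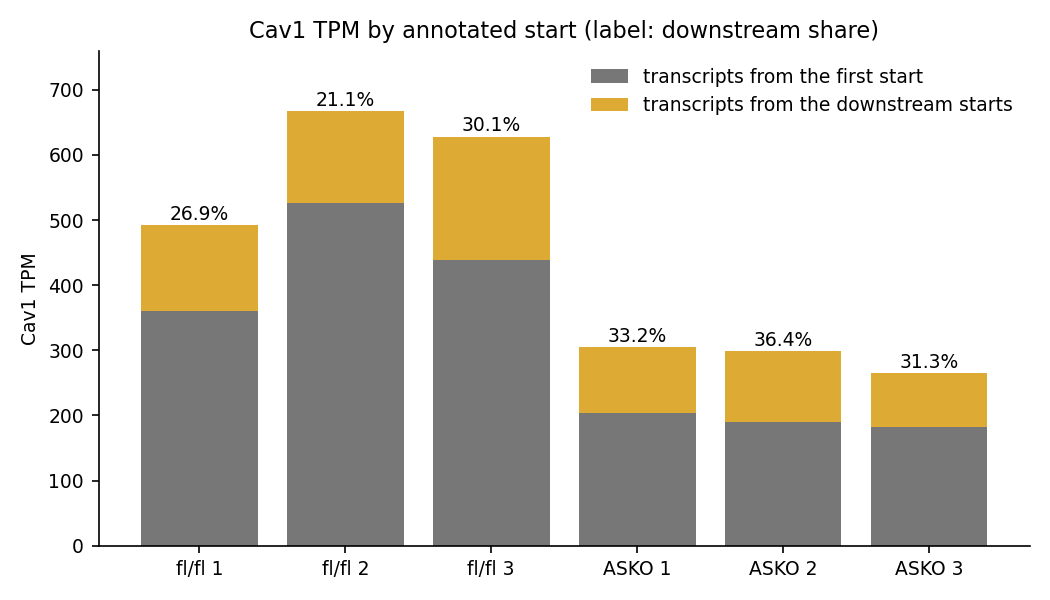
*Cav1* TPM in each of the 6 libraries (stacked bars from 0), split into transcripts from the first annotated start (grey) and from the downstream starts (yellow), with the downstream share written above each bar. The shares are 21.1% to 30.1% in the 3 controls and 31.3% to 36.4% in the 3 Cebpa_ASKO libraries.

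The other genes of the caveola and of its traffic were taken from 4 lists, 39 genes in all, each of which was tested. In the list of 9 further coat and neck genes (*Cavin4*, the EHD and pacsin families, *Dnm2*, *Ror1*) none was called in either direction by edgeR (3 had an unadjusted p below 0.05), beside 5.23% of all genes, and the median log2 fold change was 0.19. Closest to a call were *Ehd3*, another EHD ATPase, which was at 8.32 ± 2.23 and 4.68 ± 0.343 CPM (SD, n = 3 each, log2 fold change -0.83, adjusted p = 0.0929, edgeR), and *Pacsin2*, a membrane-curving protein of caveolae, at 81.6 ± 3.74 and 98.7 ± 1.76 CPM (0.27 on the log2 scale, adjusted p = 0.102, edgeR). DESeq2 called both. Nor was any of the 6 kinases and cytoskeletal links called by edgeR (1 had an unadjusted p below 0.05) or by DESeq2, and the median was 0.13. With so few genes, 0 called is near the share of all genes for both lists. *Src*, the kinase that phosphorylates caveolin-1, was at 24.8 ± 1.37 and 32.1 ± 3.27 CPM (adjusted p = 0.0932, edgeR), and *Csk*, which restrains Src, was at 63.7 ± 8.59 and 53.7 ± 6.13 CPM (adjusted p = 0.368, edgeR).

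Among 12 receptors, transporters and enzymes that have been placed in caveolae, 4 were called lower and 0 higher (edgeR), against the 3.84% and 1.39% of all genes, with a median log2 fold change of -0.28. *Nos3*, the endothelial nitric oxide synthase that binds caveolin-1, dropped from 47.8 ± 12 CPM to 11.3 ± 3.09 CPM (SD, n = 3 each), or -2.08 on the log2 scale (SE 0.251, edgeR adjusted p = 0.00610). *Aoc3*, an amine oxidase of the adipocyte surface, fell by 1.46, and *Insr*, the insulin receptor, fell by 0.93 on the log2 scale (adjusted p = 0.00683 and 0.00516, edgeR). *Insr* went from 116 ± 13.6 to 60.9 ± 3.37 CPM (SD, n = 3 each). Of the 8 that were not called, *Slc2a4*, the insulin-regulated glucose transporter, was at 213 ± 53.4 and 212 ± 34.1 CPM, and *Plvap*, which forms the diaphragm of endothelial caveolae, was at 31.0 ± 3.28 and 30.6 ± 6.56 CPM (SD, n = 3 each). *Cd36*, the fatty acid carrier, was at 1672 ± 234 and 954 ± 137 CPM (SD, n = 3 each) without overlap, and missed the threshold (adjusted p = 0.0577, edgeR).

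A list of 12 genes covered the transport and metabolism of cholesterol and sphingolipids, the lipids of the caveolar membrane. Of these, 1 was called lower and 0 higher (edgeR), near the 3.84% and 1.39% of all genes, and the median log2 fold change was 0.03. The gene called was *Scarb1*, the HDL receptor SR-BI, which dropped from 84.4 ± 11.4 CPM to 29.8 ± 4.60 CPM (SD, n = 3 each), or -1.50 on the log2 scale (SE 0.150, edgeR adjusted p = 0.00316). *Sgms1* and *Ugcg*, enzymes of sphingomyelin and glucosylceramide synthesis, were at 32.4 ± 2.24 against 29.5 ± 3.14 CPM and at 35.4 ± 5.83 against 35.0 ± 3.63 CPM (SD, n = 3 each).

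The pattern of *Cav1* over the 6 libraries was compared with that of 10050 tested genes with a mean of at least 10 CPM, as Pearson's r of log2 CPM. The 5 most similar genes were *Aoc3*, *Lgals12*, *Dtx2*, *Pla2g16* and *Ncoa4*, with r between 0.9961 and 0.9973, and all 5 were lower in Cebpa_ASKO. *Cavin2* and *Cav2* were alike to *Cav1* at r = 0.99 each, with 46 and 58 of the 10050 genes above them. *Ehd2* (0.78), *Cavin1* (0.73) and *Cavin3* (0.36) were less alike, and *Cav3* was at -0.70. These values describe 6 libraries in 2 groups, so any gene with a clear genotype difference scores high.

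Adipocytes and endothelial cells are both rich in caveolae, and markers of both were lower in Cebpa_ASKO. A list of 10 endothelial markers, *Pecam1*, *Cdh5* and *Cldn5* among them, was lower for all 10 genes with a median log2 fold change of -0.54, 2 were called lower (edgeR, against 3.84% of all genes, whose median was 0.02), and the sum was 450.5, 487 and 533 CPM in Cebpa_fl/fl and 338, 303 and 415 CPM in Cebpa_ASKO. The list of 8 adipocyte markers summed to 17059, 19942 and 17147 CPM in the controls and to 9211, 7322 and 6873 CPM in the knockouts, with 4 called lower (edgeR, against the same 3.84%) and a median of -0.99. The sum of 9 smooth muscle and pericyte markers went the other way. It was 729.7 to 913 CPM in Cebpa_fl/fl and 929 to 1075 CPM in Cebpa_ASKO. None of the 9 was called by edgeR, beside 5.23% of all genes in either direction. The fibroblast and progenitor sum (10 genes) and the macrophage sum (6 genes) overlapped, and edgeR called none of their genes, beside 5.23% of all genes. Both were highest in Cebpa_fl/fl 2, as were the adipocyte sum and every caveola gene but *Cav3*. Mammary epithelium markers (6 genes) were at 595 to 1194 CPM in the controls and 1518 to 1682 CPM in the knockouts. All 6 had a positive log2 fold change and edgeR called none of them. Of 6 slow skeletal muscle markers, which summed to at most 16.0 CPM, edgeR called 1 higher, *Myl3*, against 1.39% of all genes. The part of these cell types in the results for the caveola genes was not tested.

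**Figure D5:**
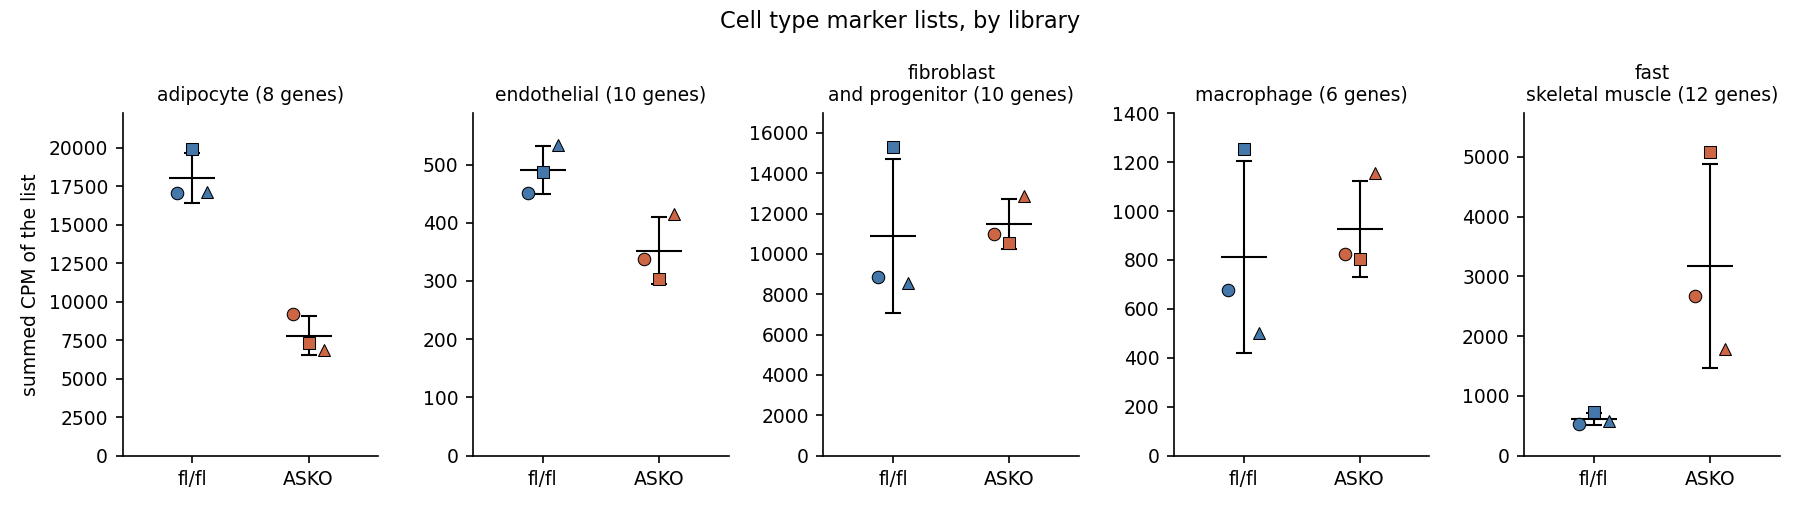
Summed TMM-normalized CPM of 5 lists of cell type markers (y axes, from 0) in the 3 Cebpa_fl/fl (blue) and 3 Cebpa_ASKO (orange) libraries, with the mean and SD. The adipocyte and endothelial sums are lower and the fast skeletal muscle sum is higher in every Cebpa_ASKO library, while the fibroblast and macrophage sums overlap. The adipocyte, fibroblast and macrophage sums peak in Cebpa_fl/fl 2.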

How the data were processed

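RNA of iWAT was enriched for poly-A mRNA and sequenced as paired ends by the authors. Per the submitters' processing notes, kallisto 0.44.0 and the build GRCm38.p6 were used (GRCh38.p12 is also listed), and the transcript release was not given in the sources used here. The authors deposited estimated counts from kallisto, TPM, length and effective length for each transcript, and TPM summed for each gene symbol. Here 116816 of 118489 transcripts (98.6%) were matched to GENCODE M21 and estimated counts were summed by symbol and rounded.

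Genotypes were compared with edgeR 4.0.16 (quasi-likelihood, R 4.3.3) after TMM scaling and filterByExpr at its defaults, p-values were adjusted over 16069 genes by Benjamini-Hochberg, and genes below 0.05 were called. The standard error is the log2 fold change divided by the root of the F statistic. The paper names DESeq2 for this step. Alternatives were DESeq2 1.42.0, other scalings and filters, a length offset, limma 3.58.1 on log2(TPM + 1) and log2(TPM + 0.1), the replicate number as a block, a covariate for fast muscle genes, and leaving out 1 library at a time. Exact permutation tests used all 20 arrangements. A pseudocount understates changes of low genes.

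Members and gene lists were chosen with earlier results of these data known. The named genes were the 7 members, *Cebpa*, in each list of caveola-linked genes those called or otherwise the 2 with the lowest adjusted p, and the 5 genes most like *Cav1*. *Cavin4*, *Slc2a4*, *Plvap*, *Cd36*, *Sgms1*, *Ugcg* and *Myl3* were named after their values were seen. Some genes of these lists enter the counts and are not reported here by name. Replicates of a genotype differed by more than sampling noise (chi-square over its degrees of freedom 26.9 to 239). The procedure was tested on simulated data.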

Additional observations from a re-analysis of the deposited data

How the results depend on the processing

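*Cav1*, *Cav2* and *Cavin2* were lower in Cebpa_ASKO under all 17 alternatives, with log2 fold changes from -1.39 to -1.03, -1.50 to -0.83 and -1.46 to -0.83, and with DESeq2, 2 other scalings, 2 other filters, the length offset and limma on filtered TPM all 3 stayed called. DESeq2 called 1796 of 17870 genes (10.1%), where edgeR called 840 of 16069 (5.23%). Of the 39 caveola-linked genes DESeq2 called 10 and edgeR 5. limma without a filter called 359 of 23566 genes and 1 caveola gene, *Cav1*, with *Cav2* and *Cavin2* at adjusted p = 0.0802 and 0.0793. Leaving out each library in turn gave from 311 to 922 genes and from 0 to 3 caveola genes. With Cebpa_ASKO 2 left out edgeR called 0 of the 7 at an adjusted p below 0.05 (3 had an unadjusted p below 0.05), while DESeq2 on all libraries called 3.

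Whether the replicate numbers of the labels pair the libraries was not given. The deviations of same-numbered libraries from their group means correlated at 0.10, -0.01 and -0.26. Those of libraries with different numbers correlated between -0.19 and 0.20. With 3 libraries in a group these values cannot decide whether the libraries were paired. With the replicate block edgeR called 370 genes and 0 caveola genes (4 with an unadjusted p below 0.05, limma on filtered TPM without the block calling 3), with *Cav1* at -1.12 (adjusted p = 0.0740, edgeR). With the fast skeletal muscle share as a covariate, which separates the genotypes, edgeR called 0 genes (885 with an unadjusted p below 0.05, against 3185 without the covariate), 0 caveola genes and 0 linked genes. The signs of *Cav3* (-0.68), *Cavin3* (0.15), *Csk* (0.05) and *Src* (-0.02) were then reversed, none of them called in either fit. Leaving out each library put *Cavin3* between -0.43 and 0.00, the latter without Cebpa_fl/fl 2. All 6 ratios to *Cav1* and the 3 transcript shares kept their direction under each of their own 9 alternatives. No exact test could pass the threshold there. For the ratios this direction follows from the reference, since *Cav1* fell most of the 7 genes in the main fit. The ratios were not run with the fast muscle covariate, where *Cav2* (-1.50) and *Cavin2* (-1.46) fell more than *Cav1* (-1.39). The cause of the changed counts was not tested. Depth limits *Cav3*, with at most 65 counts.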
